A study of Mus musculus with 18 samples.

Results

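The genes that encode the proteins of the cytosolic ribosome were followed in bone marrow-derived macrophages (BMDMs) with and without prolyl endopeptidase (PREP), a peptidase encoded by Prep. They were chosen by symbol only. A gene was included when its symbol joined Rpl or Rps to a number, with no more than a closing a, x, l or y and a copy number, and Rplp0, Rplp1, Rplp2 and Rpsa were added. This gave 77 genes of the 16314 symbols measured, 31 for the small and 46 for the large subunit. S6 kinases and pseudogenes were left out, and 8 genes with like-type symbols were kept apart. All 77 passed the filter on low counts and were among the 12021 genes tested.

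Bulk RNA-seq had been made of BMDMs from Prep-/- mice (KO) and from Prep+/- littermates (HET) on a C57BL6/J background, after 7 days of culture in 50 ng/ml M-CSF, the growth factor that turns marrow precursors into macrophages. In each genotype, M0 cells received nothing further, M1 cells were given LPS at 50 ng/ml, and M2 cells IL-4 and IL-13, each at 20 ng/ml, for the last 24 h. Each of the 6 groups held 3 biological replicates, which gave 18 libraries. The controls carried 1 deleted allele of Prep, no wild-type group was analysed here, and the sex and age of the marrow donors and the meaning of a shared replicate number are not given in the sources used here.

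A ribosome is built from ribosomal RNA and a matched set of small, highly conserved proteins, and most of these proteins are present once in each particle. Their mRNAs are short and very abundant. They typically begin with a C followed by a run of pyrimidines, the terminal oligopyrimidine (TOP) start, through which mTORC1, a kinase complex that senses nutrients and growth factors, and the RNA-binding protein LARP1 set their translation and their stability. LPS, a component of bacterial walls, drives macrophages into an inflammatory state, while IL-4 and IL-13 drive the alternative state.

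A TOP start was looked for at the start sites that RefSeq gives on GRCm38.p6, as a C at the first base followed by at least 4 bases that are all C or T, on the strand of the gene. Of the 77 genes, 57 had an entry, and 13 of these began in this way, which was 22.8% against 3.01% of 27025 symbols with an entry. With the start allowed to lie within 5 bases of the given one, the shares were 47.4% and 21.2%. The sequences below show 10 bases before the start and 20 from it, with the pyrimidine run at the start in capitals. They were picked to show long and short runs, and genes with no run that later results turn on.

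Rps6 (chr4:86857348-86857377, minus strand): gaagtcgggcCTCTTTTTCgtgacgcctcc

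Rpl15 (chr14:18270967-18270996, minus strand): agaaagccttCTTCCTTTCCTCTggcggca

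Rps18 (chr17:33955646-33955675, minus strand): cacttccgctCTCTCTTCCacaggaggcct

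Rps27 (chr3:90213629-90213658, minus strand): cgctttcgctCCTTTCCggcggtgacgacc

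Rps21 (chr2:180257369-180257398, plus strand): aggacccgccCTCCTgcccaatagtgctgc

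Rplp2 (chr7:141447641-141447670, plus strand): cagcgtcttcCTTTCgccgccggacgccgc

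Rpl10a (chr17:28328461-28328490, plus strand): gcccccccagcggccgcaaactgcagcgcc

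Rpl24 (chr16:55966265-55966294, plus strand): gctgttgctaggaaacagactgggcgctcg

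The absence of capitals in the last pair says only that no such run begins at the base RefSeq gives as the start.

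The libraries held between 19068237 and 22598279 counts. Prep was measured at 26.0 to 42.5 CPM, counts scaled to a common library size with TMM factors, in the 9 HET libraries and at 1.48 to 3.22 in the 9 KO libraries. All 8 macrophage markers were expressed, with a sum of at least 10998 CPM, here scaled without TMM factors, in every library. Replicates of 1 group differed by more than the sampling noise of their counts in every group. KO M0 replicate 3 and KO M2 replicate 3 stood farthest from the other replicates, with a chi-square per degree of freedom of 112 to 120 against 9.90 to 49.4 for the other pairs.

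The 77 genes took less of the library in LPS-treated cells of both genotypes than in the other states. Their share of all counts was 5.89%, 5.32% and 4.59% in HET M0, and 2.88%, 3.84% and 3.40% in HET M1. In KO M0 it was 5.17%, 5.21% and 8.10%, and in KO M1 it was 2.43%, 2.87% and 2.79%. The M0 and M1 libraries did not overlap in either genotype, and the M1 libraries were the lowest 6 of the 18. The share was 6.58%, 5.82% and 6.13% in HET M2 and 5.68%, 5.53% and 4.79% in KO M2, so that all 3 KO M2 libraries lay below all 3 HET M2 libraries. As group means (SD, n = 3), the shares were 5.27% ± 0.653 in HET M0, 6.16% ± 1.68 in KO M0, 3.37% ± 0.479 in HET M1, 2.70% ± 0.236 in KO M1, 6.18% ± 0.383 in HET M2 and 5.33% ± 0.477 in KO M2. The KO M0 mean rested on replicate 3, without which it was 5.19%. In bulk RNA, fewer cells of a type and less RNA per cell cannot be told apart.

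**Figure D1:**
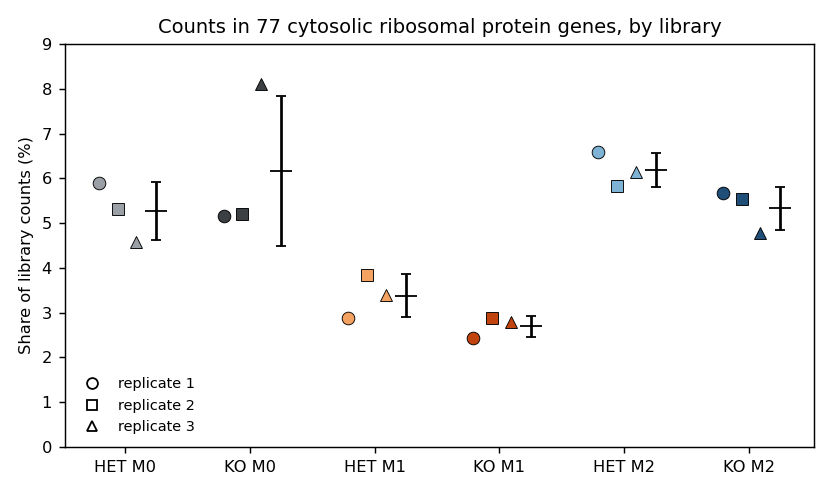
Share of all counts (%, y axis) taken by the 77 cytosolic ribosomal protein genes in each of 18 libraries, by group (x axis). Symbols are libraries, and the black bars are the mean ± SD of 3 libraries. The 6 M1 libraries lie between 2.43% and 3.84%, and KO M0 replicate 3 lies at 8.10%.

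Since these mRNAs are short, a library that favours short transcripts reads them higher. The coding sequences of the 77 genes had a median of 468 nt, against 1383 nt over all genes tested. For each library a length slope was therefore taken, the change in a gene's log2 CPM, against its mean over all libraries, per doubling of transcript length. It ranged from -0.181 to 0.15. The most negative slopes, which mark libraries with relatively more counts in short transcripts, were those of KO M0 replicate 3 (-0.181), HET M1 replicate 2 (-0.173) and HET M1 replicate 3 (-0.124). The most positive were those of HET M0 replicate 3 (0.15) and KO M0 replicate 2 (0.124). In every group but KO M1, the library with the lowest slope had the highest share of ribosomal protein counts. The slope was computed over the tested genes other than these 77, and its part in the results was not tested as a cause. Each comparison below is given with the trend removed as well, by transcript length and, as an addition made after the values were seen, by coding length.

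**Figure D2:**
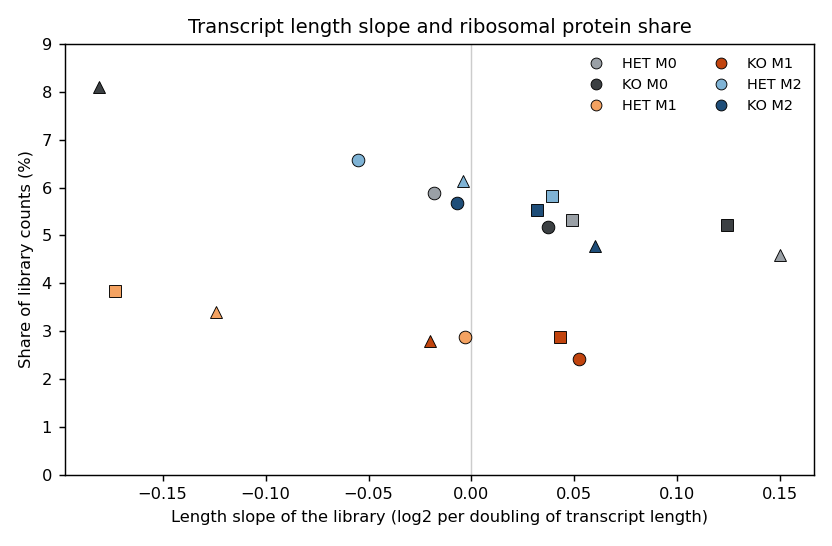
Length slope of each library (x axis, log2 per doubling of transcript length) against its share of counts in the 77 genes (y axis, %). Colours mark the group, and circles, squares and triangles mark replicates 1, 2 and 3. KO M0 replicate 3 has the most negative slope, at -0.181, and the highest share, at 8.10%, and the M1 libraries form the lower band.

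Tests were then made for each gene in 7 comparisons with edgeR's quasi-likelihood test on all 18 libraries. A gene is said to pass, to rise or to fall when its p-value adjusted over all 12021 genes lay under 0.05. Levels are normalised CPM, except the summed CPM of cycling genes, which was scaled to library size without TMM factors. Errors of log2 fold changes are standard errors of that fit. The shares of all genes set beside the counts are those of this fit too. Counts from other fits stand without such a share, although another fit can change how many genes pass in all. The comparisons within a genotype share its M0 libraries with each other and with the comparison of genotypes in M0.

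**Figure D3:**
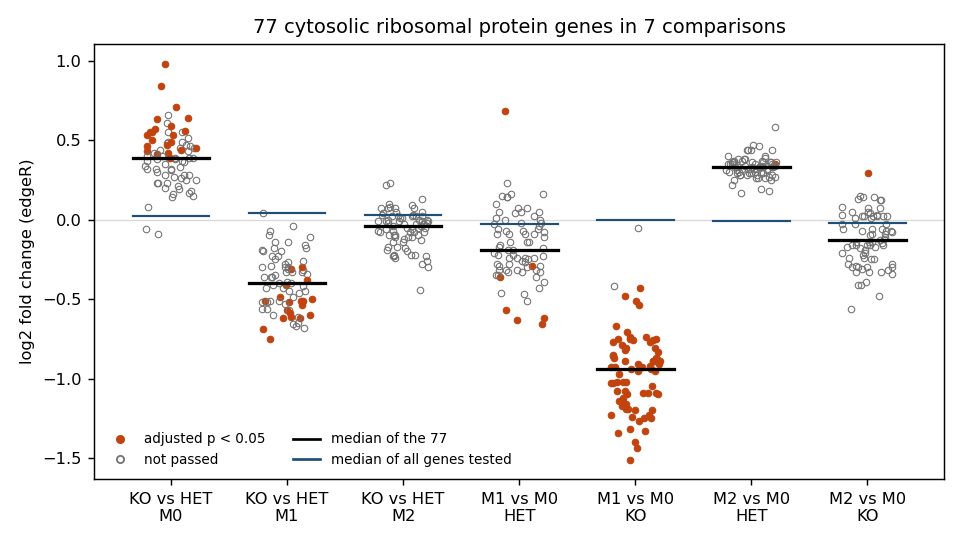
log2 fold change (y axis) of each of the 77 genes in 7 comparisons (x axis). Filled points passed an adjusted p of 0.05, black lines are the median of the 77 genes, and blue lines are the median of all 12021 genes tested. Nearly all points are filled in M1 against M0 in KO, where the median is -0.94, and 1 point is filled in each of the M2 against M0 comparisons.

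The clearest change was the fall of ribosomal protein mRNAs after LPS in KO BMDMs. Of the 77 genes, 75 fell and 0 rose, which was 97.4% of them, against 27.8% of all genes tested that fell in this comparison and 29.3% that rose. All 31 small subunit genes fell, with a median log2 fold change of -1.03, as did 44 of 46 large subunit genes, with a median of -0.90. Over the 77 genes the median was -0.94, while over all genes tested it was 0. In 76 of the 77 genes, every KO M1 library lay below every KO M0 library, compared with 28.0% of all genes.

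Rpl10a, the protein of the mobile stalk of the large subunit past which used tRNA leaves, fell most. It was measured at 537, 554 and 770 CPM in the KO M0 libraries and at 194, 235 and 226 CPM in the KO M1 libraries. The groups were far apart, and no KO M1 library came near the lowest KO M0 library. The log2 fold change was -1.51 ± 0.15 (edgeR adjusted p = 2.85e-07), or 2.84-fold lower. Rps21, a small subunit protein, followed it. It was at 258, 211 and 529 CPM in KO M0 and at 117, 119 and 131 CPM in KO M1, with replicate 3 the high library of M0. Its log2 fold change was -1.44 ± 0.28 (edgeR adjusted p = 3.38e-04). Without KO M0 replicate 3 the changes were -1.32 for Rpl10a and -0.94 for Rps21, and both still passed.

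With a fold change over 1.5 asked for as well, 71 of the 77 genes fell, against 21.0% of all genes. The fall ran through proteins of different position and role. Rpl3, which lies near the peptidyl transferase centre, was at 858, 1082 and 1232 CPM in KO M0 and at 323, 475 and 407 CPM in KO M1, without overlap, and fell by 1.4 on the log2 scale (SE 0.15, edgeR adjusted p = 9.26e-07). Rpsa, which doubles as the laminin receptor precursor, was the most abundant of the 77 mRNAs in KO M0 replicate 3, at 2974 CPM. It was at 1455 and 1419 CPM in the other KO M0 libraries and at 698, 831 and 814 CPM in KO M1, and its log2 fold change was -1.32 ± 0.24 (edgeR adjusted p = 1.68e-04). The stalk proteins Rplp0, Rplp1 and Rplp2, which recruit translation factors, had log2 fold changes of -0.87, -1.25 and -1.09, and all of them passed.

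Rps6, the target of the S6 kinases downstream of mTORC1, was among those that fell least. It was at 568, 593 and 861 CPM in KO M0 and at 397, 438 and 434 CPM in KO M1, and its log2 fold change was -0.67 ± 0.15 (edgeR adjusted p = 9.25e-04). Rpl5 and Rpl11, which as free proteins bind MDM2 and stabilise p53, fell by 0.89 and 0.82 on the log2 scale. Rpl13a, which in its phosphorylated free form silences inflammatory mRNAs, fell by 0.89. Rps19, mutated in Diamond-Blackfan anaemia, fell by 0.91, Rps27a, made as a ubiquitin fusion, by 1.23, Rpl38, which is needed for translation of Hox mRNAs, by 1.16, and Rpl39, at the end of the exit tunnel, by 0.93. The 13 genes with a TOP start at the RefSeq position had a median of -1.03 and the 44 without one had a median of -0.89, values that are given as a description.

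Of the 2 genes that did not pass, Rpl27 stood at -0.42 (log2 fold change) ± 0.18 (edgeR adjusted p = 0.0544), and its KO M1 libraries lay below its KO M0 libraries. Rpl24, a large subunit protein that forms part of a bridge to the small subunit, stood out. It was at 426, 395 and 591 CPM in KO M0 and at 452, 415 and 501 CPM in KO M1, so that the groups overlapped. Its log2 fold change was -0.05 ± 0.16 (edgeR adjusted p = 0.825). Another gene overlaps Rpl24 on the same strand, and its part in these counts was not tested.

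The count in KO cells moved little with the processing. With either length trend removed, 76 genes fell, with medians of -0.92 and -0.93. Other genes of at most 500 nt coding length had a median of -0.12 in this comparison, and the 46 ribosomal protein genes of that length had -1.03. Leaving out 1 library at a time left between 72 and 76 genes that fell. The lowest count came without KO M0 replicate 3, where the median was -0.65. A block for the replicate number, whose meaning is not given, left 75. The summed CPM of 8 genes of cycling cells was 439 to 876 in KO M0 and 380 to 406 in KO M1, and its part in the fall was not tested.

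In HET BMDMs the LPS response of the same genes was smaller. Of the 77 genes, 6 fell (7.79%, against 27.3% of all genes tested) and 1 rose (against 24.8%), and the median was -0.19. The genes that fell were Rpl10a, Rpl3 and Rpl4, together with Rpl6, Rps4x and Rps7, which are named here because the count was small. Rpl10a was at 553, 518 and 461 CPM in HET M0 and at 273, 374 and 323 CPM in HET M1. These groups did not overlap, and the log2 fold change was -0.66 ± 0.14 (edgeR adjusted p = 0.00102). Rpl3 was at 1016, 948 and 895 CPM in HET M0 and at 558, 667 and 623 CPM in HET M1, also without overlap, at a log2 change of -0.63 ± 0.15 (edgeR adjusted p = 0.00193).

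Rpl24 moved the other way. It was at 391, 360 and 315 CPM in HET M0 and at 458, 676 and 576 CPM in HET M1. Every M1 library was above every M0 library, and the log2 fold change was 0.68 ± 0.16 (edgeR adjusted p = 0.00194), a 1.60-fold rise. With the transcript length trend removed it was 0.32 (edgeR adjusted p = 0.00321), and with the coding length trend removed 0.47. Without scaling factors it was 0.21 and did not pass (edgeR adjusted p = 0.177).

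Most other members overlapped between HET M0 and HET M1. Rplp1, for example, was at 1420, 1201 and 963 CPM in HET M0 and at 834, 1426 and 1115 CPM in HET M1. The spread within each of the groups was as wide as the step between them, and the log2 fold change was -0.09 ± 0.26 (edgeR adjusted p = 0.801). Rps26 was at 631, 542 and 446 CPM against 398, 630 and 503 CPM, again overlapping. In both genes HET M0 replicate 3 was the lowest M0 library and HET M1 replicate 2 the highest M1 library, and these were the HET libraries with the most positive and the most negative length slopes.

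**Figure D4:**
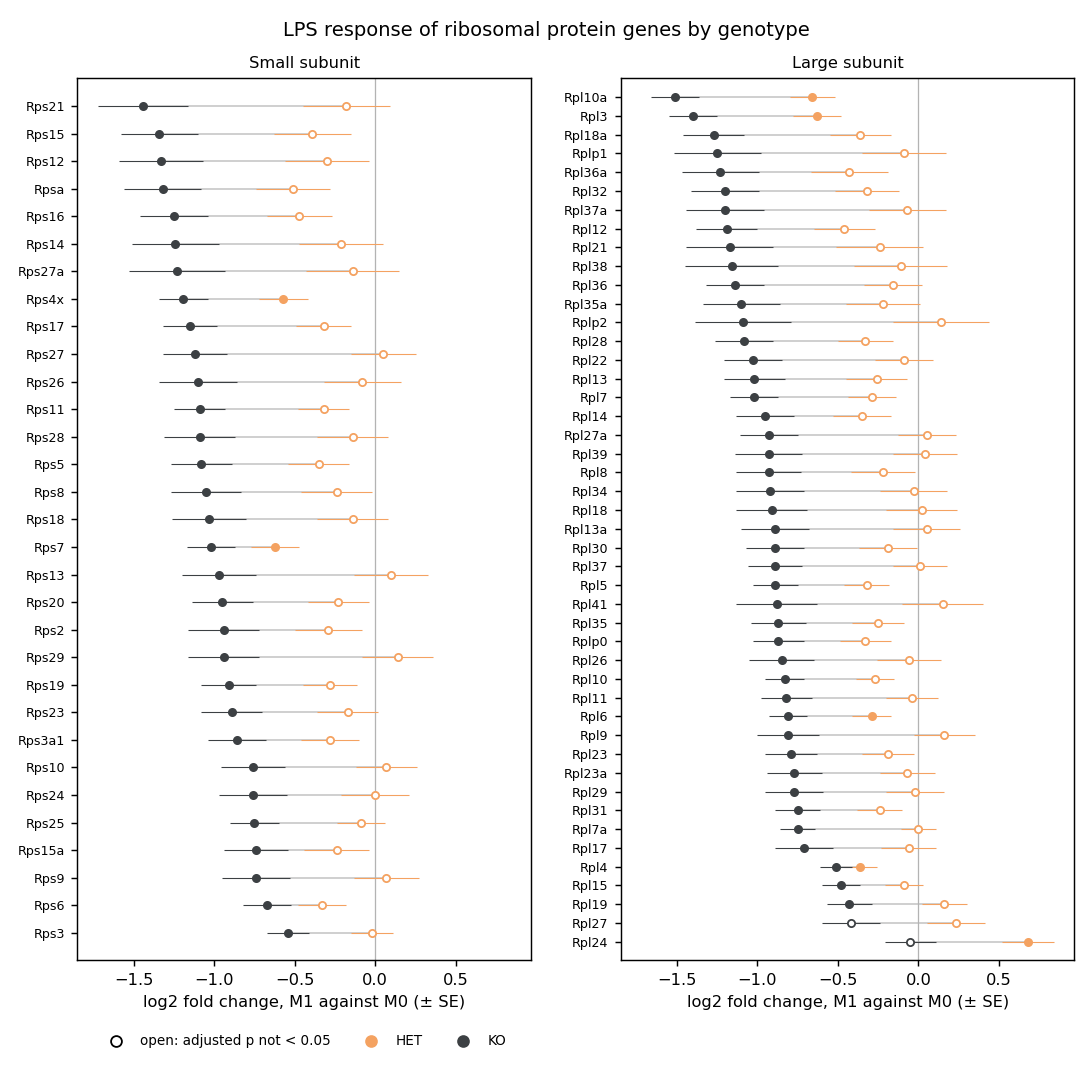
log2 fold change of M1 against M0 (x axis, ± SE) of each small subunit gene (left) and large subunit gene (right), in HET (orange) and KO (dark grey). Filled points passed an adjusted p of 0.05. The KO point lies left of the HET point in all 77 genes. Rpl24 is the only gene with a filled point right of 0, at 0.68 in HET.

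In HET the count and the median differed between settings. With a fold change over 1.5 asked for as well, 3 genes fell (20.9% of all genes). With the transcript length trend removed, 48 genes fell and the median was -0.42, and with the coding length trend removed, 49 fell and the median was -0.39. The median of all genes was 0.01 with either trend removed. Other genes of at most 500 nt coding length had a median of 0.24 in this comparison, in which the ribosomal protein genes of that length had -0.14. With KO M0 replicate 3 and HET M1 replicate 2 both left out, 34 fell. Leaving out 1 library at a time left 5 to 9, the 9 without HET M1 replicate 2. Without scaling factors 65 fell and the median was -0.65, but there the median of all genes was -0.50 as well, since TMM factors were 0.818 to 0.886 in HET M1 and 1.151 to 1.196 in HET M0. The summed CPM of the cycling genes, scaled without these factors, was 2516 to 2803 in HET M0 and 426 to 458 in HET M1. Its part was not tested.

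The difference between the genotypes in their LPS response was tested as an interaction, which is the same value as the difference of the KO effect between M1 and M0. It was lower in KO for 45 genes and higher for 0 (background 10.9% lower and 13.7% higher), with a median of -0.78. Rps21 differed by -1.26 ± 0.39 (edgeR adjusted p = 0.0266), Rps27 by -1.18 ± 0.29 (edgeR adjusted p = 0.00769) and Rpl10a by -0.85 ± 0.20 (edgeR adjusted p = 0.00704). Rpl4 and Rps6 were at the other end, with differences of -0.14 and -0.34 that did not pass. This count moved with the libraries used. It was 8 without HET M0 replicate 3, 9 without HET M1 replicate 2, 18 without KO M0 replicate 3 and 70 without KO M0 replicate 2. It was 17 without HET M0 replicate 2, 19 without HET M1 replicate 3, and 17, 21 and 26 without KO M1 replicates 1, 2 and 3. With KO M0 replicate 3 and HET M1 replicate 2 both left out, 3 genes passed, with a median of -0.35. With the transcript or the coding length trend removed, 44 or 55 passed, and the median was -0.49 or -0.56.

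In unstimulated cells, some ribosomal protein mRNAs were higher in KO BMDMs, at a share close to that of all genes. Of the 77 genes, 22 were higher in KO M0 than in HET M0 and 0 were lower, which was 28.6% higher against 24.3% of all genes tested that were higher. The median was 0.39, and 75 of the 77 log2 fold changes were above 0. The small and the large subunit did not separate, with medians of 0.40 and 0.39 and with 9 of 31 and 13 of 46 genes higher.

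Rps27, a small subunit protein with a zinc finger, rose most. It was at 282, 247 and 193 CPM in HET M0 and at 439, 334 and 649 CPM in KO M0. All 3 KO libraries were above all 3 HET libraries, and the log2 fold change was 0.98 ± 0.20 (edgeR adjusted p = 9.11e-04), or 1.97-fold. It was 0.68 without KO M0 replicate 3 and 0.77 and 0.89 with the transcript and coding length trends removed, and passed each time. Rps14, a small subunit protein of the platform whose human gene is lost in the myelodysplastic deletion of chromosome arm 5q, was at 703, 582 and 440 CPM in HET M0 and at 804, 683 and 1600 CPM in KO M0. The groups overlapped, replicate 3 carried most of the step, and the log2 fold change was 0.84 ± 0.26 (edgeR adjusted p = 0.0149).

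At the other end stood Rps2 and Rpl4. Rps2, a small subunit protein at the mRNA entry, was at 1224, 1089 and 901 CPM in HET M0 and at 691, 879 and 1448 CPM in KO M0. The first 2 KO libraries were below all HET libraries and the third was above them. Its log2 fold change was -0.09 ± 0.21 (edgeR adjusted p = 0.751), and -0.45 without KO M0 replicate 3 (edgeR adjusted p = 0.0404). Rpl4 had -0.06 ± 0.10 (edgeR adjusted p = 0.643).

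This comparison turned on which libraries entered it. Without KO M0 replicate 3, 4 genes were higher and Rps2 was lower, and the median was 0.10. Without HET M0 replicate 3, 4 were higher, and without HET M0 replicate 2, 8. Without KO M0 replicate 2, 46 were higher. The 4 genes left without KO M0 replicate 3 were Rps27, Rpl10, Rpl7 and Rpl7a, and the same 4 were left without HET M0 replicate 3. Rpl10, which joins the large subunit late in its maturation, was at 807, 723 and 674 CPM in HET M0 and at 1002, 881 and 1224 CPM in KO M0, without overlap, at a log2 change of 0.50 ± 0.12 (edgeR adjusted p = 0.0031). Rpl7 and Rpl7a, named for this reason after their values were seen, had log2 fold changes of 0.57 and 0.45. With a fold change over 1.5 asked for as well, 6 were higher (15.4% of all genes). A fit to the 6 M0 libraries alone left 2 genes, Rps27 and Rpl7a. With the transcript or the coding length trend removed, 38 or 52 genes were higher.

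After LPS, some ribosomal protein genes were lower in KO than in HET. In KO M1 against HET M1, 19 genes were lower and 0 higher, which was 24.7%, against 16.6% of all genes tested that were lower and 19.7% that were higher. The median was -0.40, and 76 of 77 log2 fold changes were below 0. In 42 genes (54.5%, against 27.1% of all genes) every KO library lay below every HET library. The 19 included 6 of 31 small and 13 of 46 large subunit genes. Of the 19, 3 genes, Rpl27a, Rpl36 and Rpl7a, were also among the 22 genes higher in KO M0, which was 15.8% of the 19 and 13.6% of the 22. Over the 77 genes, 28.6% were higher in KO M0 and 24.7% lower in KO M1. The overlap was not tested, and both counts moved with single libraries.

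Rps2 was the lowest. It was at 745, 1020 and 872 CPM in HET M1 and at 428, 571 and 570 CPM in KO M1. No KO library reached a HET library, and the log2 fold change was -0.75 ± 0.22 (edgeR adjusted p = 0.0134), or 1.68-fold lower. Rps26, which contacts the mRNA upstream of the start codon, was at 398, 630 and 503 CPM in HET M1 and at 281, 326 and 343 CPM in KO M1, without overlap. Its log2 fold change was -0.69 ± 0.24 (edgeR adjusted p = 0.0342). With the transcript length trend removed, Rps2 and Rps26 had -0.56 and -0.42, and both passed.

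Rpl3 (-0.62), Rpl22 (-0.60), Rpl10a (-0.57), Rpl11 (-0.50) and Rps3 (-0.38) were also lower. Rpl22 is dispensable for most translation and is best known for its role in T cell development, and Rps3 doubles as a DNA repair factor. Rps7 and Rps15a were not, with log2 fold changes of 0.04 ± 0.15 and -0.04 ± 0.20 and edgeR adjusted p of 0.857 and 0.900. Rps7 was at 226, 295 and 262 CPM in HET M1 and at 263, 259 and 282 CPM in KO M1. Its groups overlapped.

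Beside these values stand those of other short genes. Of genes outside the set, those of at most 500 nt coding length had a median of -0.32 in KO M1 against HET M1, and the 46 ribosomal protein genes of at most 500 nt had -0.45. With the transcript or the coding length trend removed, the median was -0.22 or -0.20, and 19 or 15 genes were lower. Without HET M1 replicate 2 or without KO M1 replicate 1, 2 genes, Rpl10a and Rpl3, were lower. Without HET M1 replicate 3, 4 were lower, without KO M1 replicate 2 or 3, 8 or 9, and without HET M1 replicate 1, 42. With a fold change over 1.5 asked for as well, 7 were lower (10.2% of all genes). DESeq2 called 32 lower, and a fit to the 6 M1 libraries alone called 47.

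In M2 cells no ribosomal protein gene passed between the genotypes in the fit to all libraries. Of the 77 genes, 0 were higher and 0 lower (background 11.6% and 13.1%), 0 had an unadjusted edgeR p under 0.05, DESeq2 called 0, and the median was -0.04. The largest differences in each direction were those of Rps2, at 1518, 1332 and 1398 CPM in HET M2 and 1089, 1116 and 917 CPM in KO M2, lower in KO, and of Rps27, higher in KO, at 326, 282 and 309 CPM against 406, 353 and 315 CPM. Every KO library of Rps2 lay below every HET library, at a log2 change of -0.44 ± 0.21 (edgeR adjusted p = 0.143). Rps2 passed when only the 6 M2 libraries were fitted, with or without a block for the replicate number, whose meaning is not given. Rps27 had 0.23 ± 0.20 (edgeR adjusted p = 0.444). With either length trend removed, 2 genes, Rps27 and Rpl10, were higher in KO M2. The cycling genes, in contrast, were lower in KO M2 for 7 of 8. Their summed CPM was 1821 to 1871 in HET M2 and 543 to 941 in KO M2.

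The response to IL-4 and IL-13 was small. In HET cells, 1 gene rose and 0 fell (background 9.35% and 9.06%), although all 77 log2 fold changes were above 0, between 0.17 and 0.58, with a median of 0.33. In 50 genes (64.9%, against 22.6% of all genes) every M2 library was above every M0 library. The gene that rose was Rpl4, a large subunit protein that lines the exit tunnel. It was at 852, 902 and 902 CPM in HET M0 and at 1121, 1114 and 1150 CPM in HET M2, a tight and complete separation, at a log2 change of 0.35 ± 0.10 (edgeR adjusted p = 0.0229). Rpl4 did not pass in any fit that left out 1 of these 6 libraries. When only these 6 libraries were fitted, 44 genes rose, and with either length trend removed 7 or 6 rose, with medians of the members still above 0. Rps18 had the largest change, at 709, 649 and 533 CPM in HET M0 and at 1045, 833 and 943 CPM in HET M2. Its log2 fold change was 0.58 ± 0.23 (edgeR adjusted p = 0.0887).

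In KO cells, Rpl4 was again the 1 gene that rose in M2 against M0, from 776, 968 and 801 CPM to 1063, 1041 and 1010 CPM, at a log2 change of 0.29 ± 0.10 (edgeR adjusted p = 0.0282), and 0 fell (background 22.1% and 21.7%). The median was -0.13. In both genotypes 0 genes rose when a fold change over 1.5 was asked for as well (6.09% of all genes in HET and 14.7% in KO). Without KO M0 replicate 1, KO M2 replicate 1 or KO M2 replicate 2, 0 rose. Without KO M0 replicate 3 the median was 0.17 and 5 genes rose, and without KO M0 replicate 2, 6 fell. The difference of the KO effect between M2 and M0 passed in 0 genes (background 5.16% higher and 4.48% lower), with 6 at an unadjusted edgeR p under 0.05, 0 by DESeq2 and a median of -0.47, which was -0.14 without KO M0 replicate 3.

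**Figure D5:**
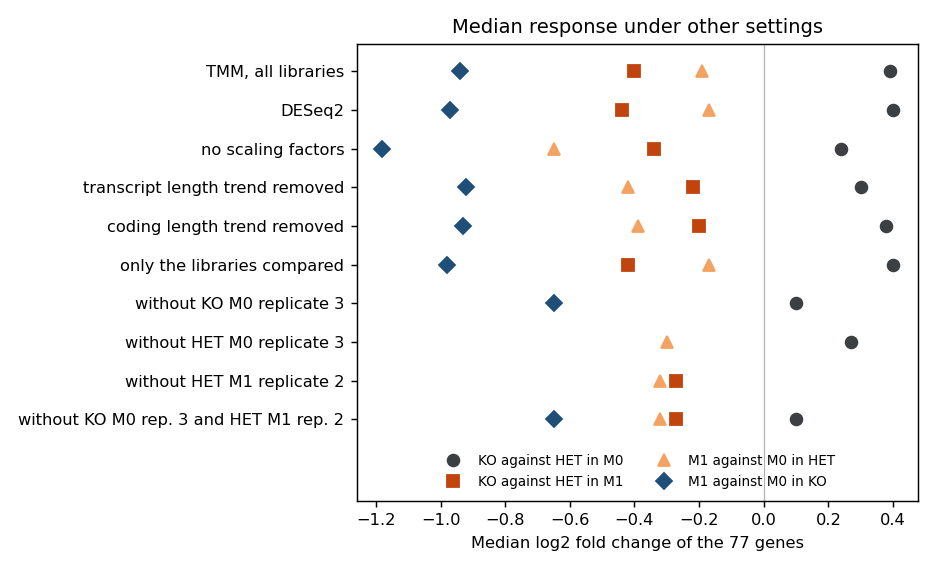
Median log2 fold change of the 77 genes (x axis) under 10 settings (y axis) in 4 comparisons, marked by shape. The median of M1 against M0 in KO stays between -1.18 and -0.65, and that of KO against HET in M0 is 0.39 with all libraries and 0.10 without KO M0 replicate 3.

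The like-type paralogues, several of which stand in for a ribosomal protein in some tissues, did not move as 1 group after LPS. Of 8, 7 were tested, and Rpl3l, a muscle gene, was not, at 0 to 7 counts per library. After LPS in KO cells, Rpl22l1 (-1.27), Rpl32l (-1.03) and Rpl6l (-0.90) fell, while Rps27l (-0.16), Rpl36al (-0.10) and Rpl7l1 (0.15) did not pass. Rpl32l and Rpl6l are annotated as pseudogenes and are near-identical copies of Rpl32 and Rpl6. Their counts can therefore hold reads of those members. In KO M1 against HET M1, in contrast, all 7 log2 fold changes were below 0, with a median of -0.51. There 4 of the 7 passed as lower in KO, where 16.6% of all genes were lower. Rps27l, a p53 target, was at 226, 203 and 218 CPM in HET M2 and at 133, 132 and 136 CPM in KO M2. It was lower in KO without overlap, at a log2 change of -0.69 ± 0.19 (edgeR adjusted p = 0.0155), in a state in which 0 of the 77 genes passed.

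Rpl39l, a copy of Rpl39 best known from the testis, was a rare mRNA that KO cells nearly lacked. It was at 1.32, 2.05 and 1.64 CPM in HET M0 and at 0.237, 0 and 0 CPM in KO M0, and at 1.66, 1.26 and 1.83 CPM in HET M2 and at 0, 0 and 0.0479 CPM in KO M2. In HET M1 it was at 2.05, 2.92 and 2.54 CPM and in KO M1 at 0.624, 0.403 and 0.254 CPM. It was lower in KO in all 3 states without overlap (edgeR adjusted p = 5.03e-05 for M0, 0.00132 for M1, 7.97e-05 for M2), and in M1, where every KO library had counts, it was 5.80-fold lower. After LPS it rose in KO cells (edgeR adjusted p = 0.0125). Fau, whose product is a small subunit protein made as a fusion to a ubiquitin-like protein, and Rack1, a scaffold on the small subunit, also fell after LPS in KO cells, by 0.95 and 0.94 on the log2 scale. In HET cells neither passed, at log2 fold changes of 0.19 and -0.32.

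Other genes of the translation programme were taken as lists. Of 20 other genes with known TOP mRNAs 17 fell after LPS in KO cells (27.8% of all genes fell) and 8 in HET cells (27.3% of all genes), with medians of -0.80 and -0.33. Npm1 fell by 1.45 and Eef1b2 by 1.46 on the log2 scale in KO. Ribosome biogenesis genes, which make and assemble the particle, did not share the fall. In KO M1 against KO M0, 13 of 49 rose and 9 fell, with a median of 0.22, where 29.3% of all genes rose and 27.8% fell. In HET 15 rose and 6 fell, where 24.8% of all genes rose and 27.3% fell.

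Between the genotypes, most biogenesis genes were lower in KO in M0 and in M1. In M0, 39 of 49 were lower (24.2% of all genes) and 0 higher, with a median of -0.80, where the ribosomal proteins had 0.39. In M1, 39 of 49 were lower (16.6% of all genes), with a median of -0.88, and in M2, 4 of 49 (13.1% of all genes). Myc, a transcription factor that drives ribosome production, was at 9.53, 23.9 and 43.4 CPM in HET M0 and at 2.56, 1.46 and 1.66 CPM in KO M0. The HET libraries spread widely but none reached the KO libraries, and the log2 fold change was -3.76 ± 0.64 (edgeR adjusted p = 1.75e-04). Dkc1, which directs pseudouridylation of ribosomal RNA, had -2.23, and Ncl, the nucleolar protein nucleolin, had -0.33. The cycling genes were lower in KO M0 for 8 of 8, and their part in this was not tested. In M2 against M0 in KO, 36 of the 49 rose (22.1% of all genes), with a median of 0.77.

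Of 22 genes of the mTORC1 and S6 kinase pathway, 4 were higher and 6 lower in KO M0, where 24.3% of all genes were higher and 24.2% lower. Deptor, an inhibitor of mTOR, was higher (1.51 ± 0.21 on the log2 scale, edgeR adjusted p = 3.82e-05), and Eif4e, which binds the mRNA cap, was lower (-1.88 ± 0.22, edgeR adjusted p = 7.00e-06). After LPS, 4 of the 22 rose and 4 fell in HET, where 24.8% of all genes rose and 27.3% fell. In KO 9 rose and 6 fell, where 29.3% of all genes rose and 27.8% fell. The medians were -0.04 and 0.31. Larp1 rose by 1.06 in HET and 1.70 in KO and Eif4e by 0.81 and 2.44 on the log2 scale. Deptor fell by 3.36 and 4, and Sesn1 by 1.87 and 2.6. Mitochondrial ribosomal proteins, encoded by separate genes, had no common fall after LPS. In KO, 20 of 78 rose and 8 fell, with a median of 0.09, where 29.3% of all genes rose and 27.8% fell. In HET 21 rose and 1 fell, where 24.8% of all genes rose and 27.3% fell. The subunits of the respiratory chain, of which 74 were tested, had medians of -0.11 in KO and 0.27 in HET in this comparison. In KO 7 rose and 10 fell, and in HET 15 rose and 3 fell. The background shares are those just given for each genotype. Between the genotypes in M1, these lists had medians close to the -0.40 of the 77 genes. Of the 78 mitochondrial ribosomal proteins, 33 were lower and 1 was higher in KO M1, with a median of -0.37. Of the 74 respiratory chain subunits, 11 were lower and 1 was higher, with a median of -0.38. Over all genes, 16.6% were lower and 19.7% higher in this comparison.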

How the data were processed

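Per the labels and the study's methods, the authors trimmed reads with Trimmomatic 0.36, aligned them to GRCm39 with HISAT2 2.2.1.0 and assembled and counted transcripts with StringTie. The deposited unit was the raw count per gene symbol. The study's methods name a stranded mRNA kit for the libraries. The annotation release, the strand setting used in counting and the treatment of reads with several matches are not given in the sources used here. Of the 77 genes, 69 have a near-identical copy in the genome, so reads can be shared between a gene and its pseudogenes. On the opposite strand 48 overlap a gene, and on the same strand 5, among them Rpl24, overlap another gene.

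Counts were filtered with filterByExpr (12021 of 16314 symbols kept), scaled by TMM and tested in edgeR 4.0.16 (R 4.3.3) with the quasi-likelihood test, with 1 coefficient per group over all 18 libraries and Benjamini-Hochberg adjustment over all genes tested. The step was tested on simulated data. DESeq2 1.42.0, other scalings, other filters, removal of a length trend, fits to fewer libraries and a replicate block were the alternatives. In the fit to all libraries, p-values rest on the spread between the 3 cultures of each group, estimated over all 6 groups together. They do not measure the spread of the compared groups alone. The number of animals behind the cultures is not given. Same-numbered libraries deviated together in KO against HET in M2 (correlations of 0.249, 0.255 and 0.462) and in M1 against M0 in KO (0.201, 0.169 and 0.259). The fit with the replicate block was an alternative there too, and its counts are given beside those results. Totals of 19068237 to 22598279 counts per library set the depth. Transcript and coding lengths came from a GENCODE annotation of GRCm39, and start sites from RefSeq on GRCm38.p6.

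The genes, the lists and the tests were chosen with earlier results of these data known. Genes named in the text are the largest and smallest changes in each comparison and a fixed set of members with known roles, and others are said to be named after their values were seen.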

Additional observations from a re-analysis of the deposited data

Results flagged for a closer look

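Some results met a rule set for a closer look, because the effect of the knockout differed between M1 and M0 by a test of the interaction in edgeR. This held for 45 of the 77 ribosomal protein genes, all lower, against 10.9% of all genes tested that were lower. Among the genes named by rule, the log2 difference was -0.52 for Rps3, -1.02 for Rps26, -1.17 for Rplp1, -1.23 for Rplp2, -0.77 for Rpl3, -0.56 for Rpl5, -0.57 for Rpl10, -0.78 for Rpl11, -0.94 for Rpl13a, -0.94 for Rpl22 and -0.98 for Rpl39. Outside the 77 genes it was -0.70 for Rpl6l, a near-identical copy of Rpl6, -1.15 for Fau and -0.62 for Rack1. With KO M0 replicate 3 and HET M1 replicate 2 left out, 3 genes passed, and the part of the length slope of these libraries was not tested.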

How the results depend on the processing

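The fall after LPS in KO was the result least moved, and the counts in M0, in M1 and of the difference between states moved with the libraries used. No share of all genes is given for the other fits. Without scaling factors, KO against HET gave 8 higher genes in M0 and 1 lower in M2, M1 against M0 in HET gave 0 higher and 65 lower with a median of -0.65, the median in KO was -1.18, M2 against M0 gave 0 higher in HET and 0 higher and 2 lower in KO, and the difference of the KO effect between M1 and M0 gave 18. Without a filter on low counts, M2 against M0 in KO gave 0 higher.

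With the transcript length trend removed, KO against HET gave 38 higher in M0, 1 higher in M1 and 2 higher in M2, M1 against M0 in HET gave 48 lower with a median of -0.42, M2 against M0 gave 7 higher in HET and 2 higher and 2 lower in KO, and the differences gave a median of -0.49 for M1 and 1 lower for M2. With the coding length trend removed, these were 52 higher in M0, 2 higher in M2, 49 lower after LPS in HET, 6 higher in M2 against M0 in HET, 3 lower in KO, and 1 lower for the M2 difference.

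In fits to only the libraries compared, KO against HET gave 2 higher in M0, 47 lower in M1 and 1 lower in M2, LPS in HET gave 10 lower, M2 against M0 gave 44 higher in HET and 0 in KO, and the M1 difference gave 20. With the replicate block as well, these were 0, 54, 1, 6, 73, 0 and 9. With the replicate block in all libraries, KO against HET in M0 gave 14 higher and the M1 difference 30. The block changed no other count by over 1.5 times. In all comparisons the samples are known to share only a number.

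DESeq2 gave 32 lower in KO against HET in M1. With a fold change over 1.5 as well, the counts were 6 higher in M0, 7 lower in M1, 3 lower after LPS in HET, and 0 higher in M2 against M0 in both genotypes. With the like-type paralogues counted in, KO against HET gave 1 lower in M0 and 2 lower in M2, and LPS gave 2 higher in HET and 1 higher in KO.

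With KO M0 replicate 3 and HET M1 replicate 2 both left out, an alternative chosen after seeing the data as was the coding length, KO against HET in M0 gave 4 higher and 1 lower with a median of 0.10, LPS gave 34 lower in HET and a median of -0.65 in KO, M2 against M0 in KO gave 6 higher with a median of 0.17, and the differences gave 3 lower with a median of -0.35 for M1 and a median of -0.14 for M2.

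Leaving out 1 library at a time, KO against HET gave 4 to 46 higher and 0 to 1 lower in M0 (medians 0.10 to 0.53), 2 to 42 lower in M1 (-0.53 to -0.27) and 0 in M2 (-0.12 to 0.02). M1 against M0 gave 5 to 9 lower and 1 higher in HET (-0.32 to -0.06) and 72 to 76 lower in KO (-1.1 to -0.65). M2 against M0 gave 0 higher in HET (0.23 to 0.43), and 0 to 5 higher and 0 to 6 lower in KO (-0.26 to 0.17). The difference gave 8 to 70 lower for M1 (-0.92 to -0.49) and 0 to 2 lower for M2 (-0.62 to -0.14). An arm left with 2 libraries shared the spread of the other groups.

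The share of counts in the 77 genes per kilobase was 11.2%, 12.9%, 6.37%, 5.20%, 12.8% and 11.2% in HET M0, KO M0, HET M1, KO M1, HET M2 and KO M2. Without the 20 most abundant genes it was 6.10%, 7.34%, 4.29%, 3.46%, 7.12% and 6.42%. In these shares too, both M1 groups were the lowest. Of the values for named genes that passed in either fit, 5 changed sign. For M1 against M0 in HET, Rpl39 was -0.43 without scaling factors and -0.40 with the coding length trend removed, and Mrpl19 was -0.22 without scaling factors. The difference of the KO effect between M1 and M0 for Rps27l was 0.45 and 0.37 with the transcript and the coding length trends removed. Of the other values outside these counts and medians, 6419 kept their side of the threshold and either their direction or their value within 1 standard error, 509 lost the call and 259 gained it. A further 87 moved, which were the share of TOP starts and otherwise sign changes of genes that passed in neither fit. The causes were not tested. For single genes, near-identical copies and the counting of shared reads, which is not given in the sources used here, are limits beside depth.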
